A study of Mus musculus with 6 samples.

Results

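Trim37 and Trim33 encode TRIM proteins, ubiquitin ligases built from a RING finger, B-box zinc fingers and a coiled coil. Their circular RNAs (circRNAs, rings that form when a splice donor is joined backwards to an acceptor that precedes it) were followed across a stress experiment in mouse hippocampus. The members are all circRNAs in the deposited table whose host list holds the Ensembl identifier of Trim37 (ENSMUSG00000018548) or Trim33 (ENSMUSG00000033014), which gave 13 of 10652 circRNAs, 8 from Trim37 and 5 from Trim33. Both hosts were picked because their circRNAs stood out in the comparison of stressed with control mice in these same libraries. Their differences in that comparison are therefore given as descriptions without a test.

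The libraries came from adult male C57BL/6J mice aged 8 to 10 weeks, 3 under chronic unpredictable stress (CUS) and 3 Control. CUS mice met randomly ordered mild stressors, among them restraint, cold swimming, food or water deprivation and cage tilting, for 4 weeks. No genotype or drug differed between the groups, and the labels do not say whether a library came from 1 mouse or several. Tissue was whole hippocampus, so fewer cells of a type and less RNA per cell cannot be told apart. RNA was selected for poly(A) before sequencing, per the labels' protocols. Most rings have no poly(A) tail, so this step can lower and distort their recovery.

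TRIM37 is known in human cells for keeping centrosomal proteins from gathering outside centrosomes, for stabilising the peroxisomal import receptor PEX5 and for ubiquitinating histone H2A. Loss of human TRIM37 causes mulibrey nanism, a growth disorder. TRIM33, also called TIF1-gamma, carries a PHD finger and a bromodomain that read histone tails, and it acts on the SMAD proteins that relay TGF-beta and BMP signals. Forming a circRNA can compete with splicing of the linear messenger of its host, and its level need not follow that of the messenger, which was not analysed here.

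Levels below are 10 to the deposited value, with a deposited 0 kept at 0. The values are levels divided by a factor of each library, and the number of reads behind a level is unknown. A circRNA listed at 0 is therefore not shown to be absent. CUS libraries had 3991, 4238 and 4273 circRNAs above 0, against 4606, 4526 and 4329 in Control libraries. These ranges did not overlap (exact two-sided permutation test p = 0.1, the smallest that 3 against 3 allows). Relative depth follows from the library factors only if the smallest unit of level means the same in every library, which is not stated. On that assumption it was 81.9% to 89.8% of the deepest library in CUS and 90.8% to 100% in Control. Over all circRNAs, 39.1% of the values in CUS and 42.1% in Control were above 0. The part of depth and detection in the results below was not tested.

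Trim37 lies on the plus strand of chromosome 11 at 87127077 to 87220683 (GRCm38, GENCODE vM21) and has up to 24 exons in a transcript. Trim33 lies on the plus strand of chromosome 3 at 103279293 to 103358775, with up to 20 exons. The submitters' processing notes name mm9, and the table was used without circRNA coordinates, so these are positions of the host genes and not of the rings. All 13 circRNAs are classed as exonic, as are 89.4% of all circRNAs. Of the 5 Trim33 circRNAs, 4 also list Gm43061, a sense intronic noncoding gene of 2241 bases at 103332143 to 103334383. On GRCm38 it sits inside the Trim33 intron that follows exon 11 (103331808 to 103337398), so the host lists set these 4 apart from mmu_circRNA006873, which lists Trim33 alone. A host has a median of 2 circRNAs, and 5.5% of 3772 hosts have 8 or more, as Trim37 has.

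The stretch of 250 bases before the Trim37 start is shown because all 8 Trim37 rings come from transcripts of this gene. It is from the RefSeq table for GRCm38.p6, plus strand, chr11:87126825-87127074, and capitals mark matches to the GC box CCGCCC, read on both strands, with overlapping matches counted separately.
Trim37 promoter: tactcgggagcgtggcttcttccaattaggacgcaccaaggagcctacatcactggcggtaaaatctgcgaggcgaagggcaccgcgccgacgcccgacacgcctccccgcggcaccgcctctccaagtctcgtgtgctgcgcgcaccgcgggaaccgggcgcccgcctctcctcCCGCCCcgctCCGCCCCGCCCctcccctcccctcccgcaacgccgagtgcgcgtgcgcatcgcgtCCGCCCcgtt
It holds 4 GC box matches, a motif found in 32.9% of 27025 promoters of the same length. It is 72.0% G and C, against a median of 52.0% over those promoters, and has 37 CG pairs. The letters TATAAA, present in 13.0% of promoters on either strand, are not in this window. These matches describe the sequence, and no binding or transcription was measured.

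Trim37 circRNAs were found mainly in Control libraries. Of the 24 values that 8 circRNAs in 3 libraries make, 6 (25.0%) were above 0 in CUS libraries, against 16 (66.7%) in Control. No Trim37 circRNA was above 0 in all 3 CUS libraries, and 4 were above 0 in all 3 Control libraries. In each of those 4, every CUS library was below every Control library. Among 3896 circRNAs above 0 in at least 3 libraries, 5.08% showed that pattern and 5.78% the opposite one. Since Trim37 was chosen from this comparison, nothing is read from the gap between its count and those shares.

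The Trim37 circRNA of highest mean was mmu_circRNA001891. It was listed at 0 in CUS replicates 1 to 3, against 1009, 282 and 668 in Control replicates 1 to 3. mmu_circRNA001887 was likewise listed at 0 in all CUS libraries, against 883, 229 and 192 in Control. Both were thus above 0 in every Control library and at 0 in every CUS library, a pattern held by 0.882% of all circRNAs, while 0.685% had the opposite one. No fold is given for either, since 1 group is listed at 0.

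The next pair was seen in 1 CUS library each. mmu_circRNA001890 was at 0, 0 and 275 in CUS replicates 1 to 3, against 394, 572 and 567 in Control. mmu_circRNA001888 was at 0, 0 and 117 in CUS libraries, against 241, 313 and 205 in Control. In both, CUS replicate 3 was the only CUS library above 0 and stayed below the lowest Control library. Their log2 differences, CUS minus Control on log2(level + 45.5), were -2.66 with SE 1.29 and -2.09 with SE 1.30. The size of each depends on the pseudocount, because 2 CUS libraries are at 0.

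The other Trim37 circRNAs did not share this pattern. mmu_circRNA001886 was at 0, 204 and 188 in CUS libraries, against 297, 0 and 0 in Control, so it was present in more CUS than Control libraries (log2 difference 0.63, SE 1.19, and 0.15 to 1.61 without 1 library). mmu_circRNA001892 was at 498, 0 and 0 in CUS libraries, against 0, 880 and 0 in Control. mmu_circRNA001885 was at 0, 0 and 120 in CUS libraries, against 0, 0 and 253 in Control. mmu_circRNA001889 was above 0 in 1 library, Control replicate 1, at 669. The lower level under CUS was thus shared by 4 of 8 Trim37 circRNAs with no overlap between groups, and the other 4 overlapped. By mean over libraries, with 0 kept, 7 of 8 were lower in CUS and 1 was higher. Of the 8, 5 were above 0 in at least 3 libraries and entered the fit.

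**Figure D1:**
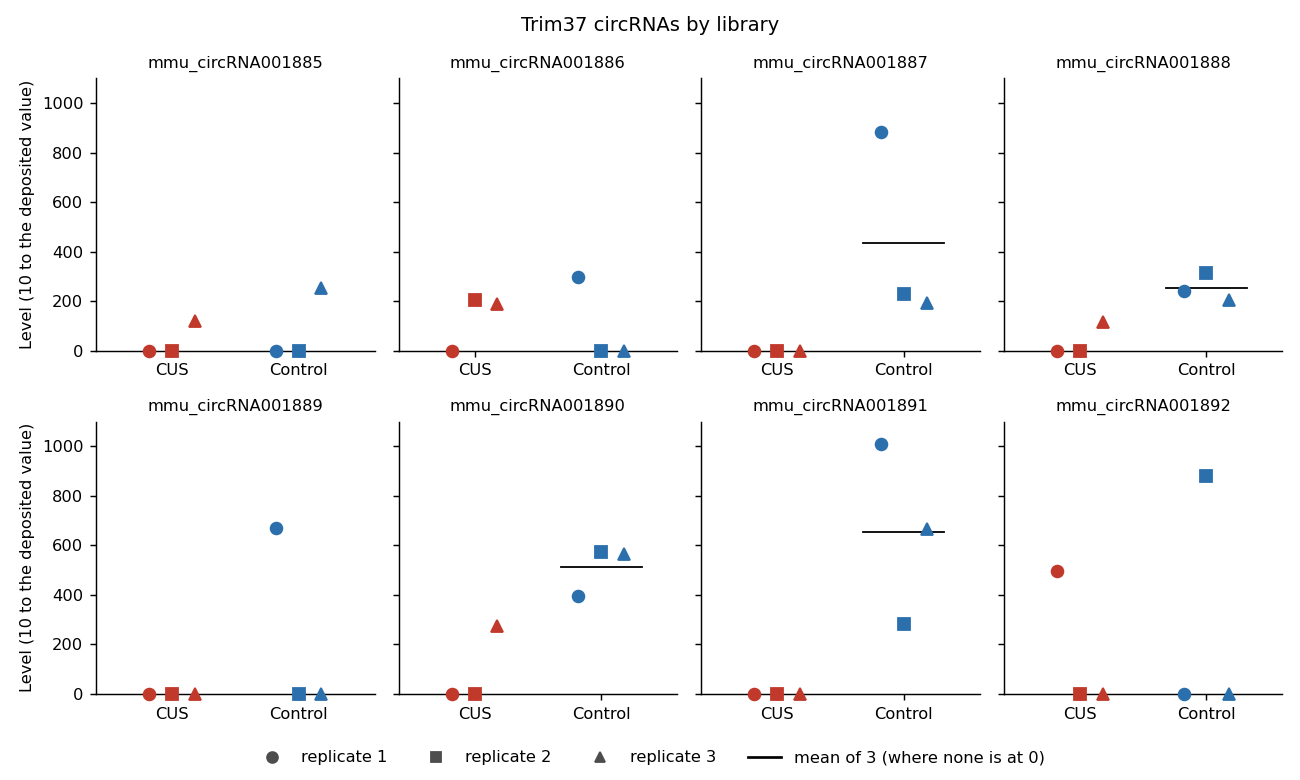
Level of each Trim37 circRNA (10 to the deposited value, linear axis) in 3 CUS and 3 Control libraries, 1 point per library, with a line at the mean where no library of the group is at 0. mmu_circRNA001887, mmu_circRNA001888, mmu_circRNA001890 and mmu_circRNA001891 lie lower in every CUS library than in any Control library, and the other 4 overlap.

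Summed over its 8 circRNAs, Trim37 was at 498, 204 and 699 in CUS replicates 1 to 3, against 3493, 2277 and 1883 in Control replicates 1 to 3. The groups did not overlap, and the CUS mean was 18.3% of the Control mean. The log2 difference was -2.43 with SE 0.65. Among 2227 hosts in the fit, 5.75% had every CUS library below every Control library, and among the 208 hosts with 8 or more circRNAs the share was 9.13%.

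What made up the sum differed from library to library. CUS replicate 1 held mmu_circRNA001892 alone and CUS replicate 2 held mmu_circRNA001886 alone, while CUS replicate 3 held 4 circRNAs, led by mmu_circRNA001890 with 39.3% of the sum. Control libraries held 6, 5 and 5 circRNAs. mmu_circRNA001891 led in Control replicates 1 and 3, with 28.9% and 35.5% of the sum, and mmu_circRNA001892 led in Control replicate 2 with 38.6%. Without mmu_circRNA001891 the sum was 467 ± 249 in CUS libraries and 1898 ± 640 in Control (SD, n = 3 each). The groups did not overlap there either. That follows from the levels of the other Trim37 circRNAs given above and is no further support. The closest pair of Trim37 circRNAs, mmu_circRNA001887 and mmu_circRNA001889, differed by 91 steps in the library where they were farthest apart, a step being the smallest unit of a library's levels.

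Trim33 showed a different arrangement. Its circRNAs summed to 0, 538 and 487 in CUS replicates 1 to 3, against 181, 1729 and 3011 in Control replicates 1 to 3. Control replicate 1 fell below 2 CUS libraries, so the groups overlapped. The log2 difference of the sum was -2.15 with SE 1.11. Without CUS replicate 1, listed at 0, it was -0.94, and without Control replicate 1 it was -3.27.

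One circRNA carried most of Trim33. mmu_circRNA006873 was at 0, 0 and 215 in CUS libraries, against 181, 1729 and 1843 in Control, and it made up 21.0% of the summed CUS level and 76.3% of the summed Control level. It was high in Control replicates 2 and 3 only, and CUS replicate 3 exceeded Control replicate 1. Its log2 difference was -3.49 with SE 1.26. The size of this difference depends on the pseudocount, because CUS replicates 1 and 2 are at 0.

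The 4 Trim33 circRNAs that also list Gm43061 did not follow mmu_circRNA006873. mmu_circRNA006874 was at 0, 315 and 0 in CUS libraries, against 0, 0 and 311 in Control, and mmu_circRNA006875 was at 0, 223 and 0 in CUS libraries, against 0, 0 and 160 in Control. These 2 were above 0 in the same 2 libraries, and no library separated them by more than 57 steps. mmu_circRNA006876 was above 0 in Control replicate 3 alone, at 697, and mmu_circRNA006877 in CUS replicate 3 alone, at 272. Summed, the 4 were at 0, 538 and 272 in CUS libraries, against 0, 0 and 1168 in Control. Without mmu_circRNA006873 the log2 difference of the Trim33 sum had the opposite sign, 0.58 with SE 1.54, on log2(level + 45.5) with 3 of 6 libraries at 0. By mean level the same remainder was still lower in CUS, at 270 in CUS libraries and 389 in Control libraries. By mean, 2 of 5 Trim33 circRNAs were lower in CUS and 3 higher, with mmu_circRNA006874 nearly equal (104.9 in CUS, 103.7 in Control). The 4 that also list Gm43061 were each above 0 in at most 1 library of a group. They are too sparse to show whether the lower level of Trim33 under CUS was shared by its circRNAs. Only mmu_circRNA006873 was above 0 in at least 3 libraries.

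**Figure D2:**
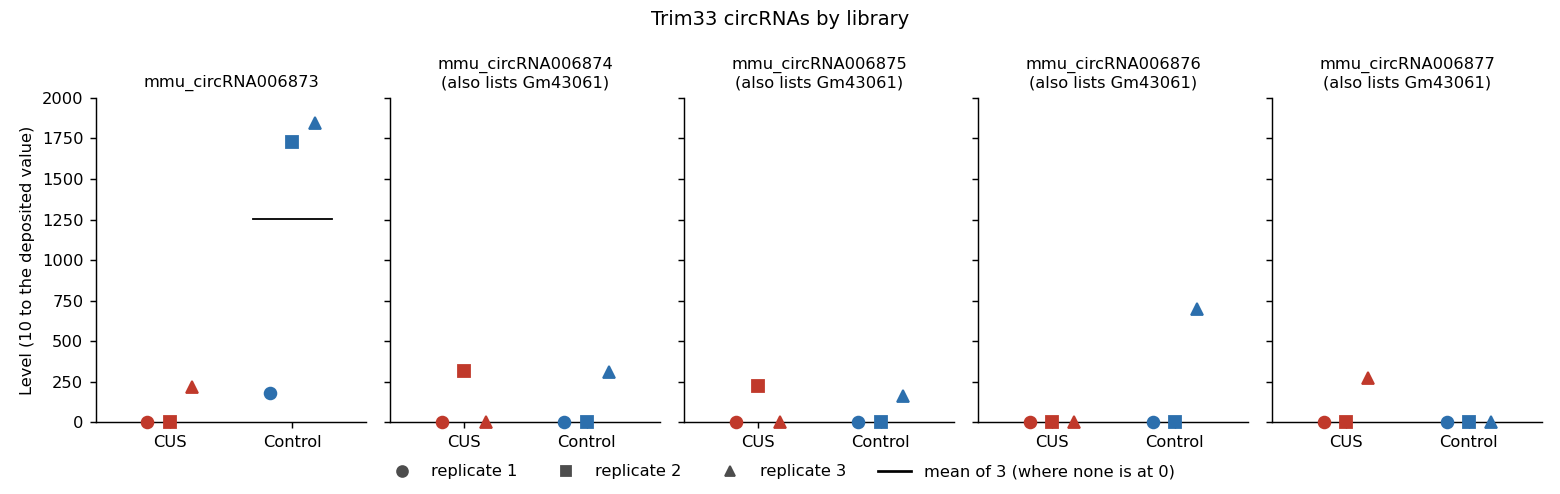
Level of each Trim33 circRNA (10 to the deposited value, linear axis) in 3 CUS and 3 Control libraries, 1 point per library, with a line at the mean where no library of the group is at 0. mmu_circRNA006873 reaches 1729 and 1843 in Control replicates 2 and 3, and the 4 circRNAs that also list Gm43061 are each above 0 in at most 1 library of a group.

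**Figure D3:**
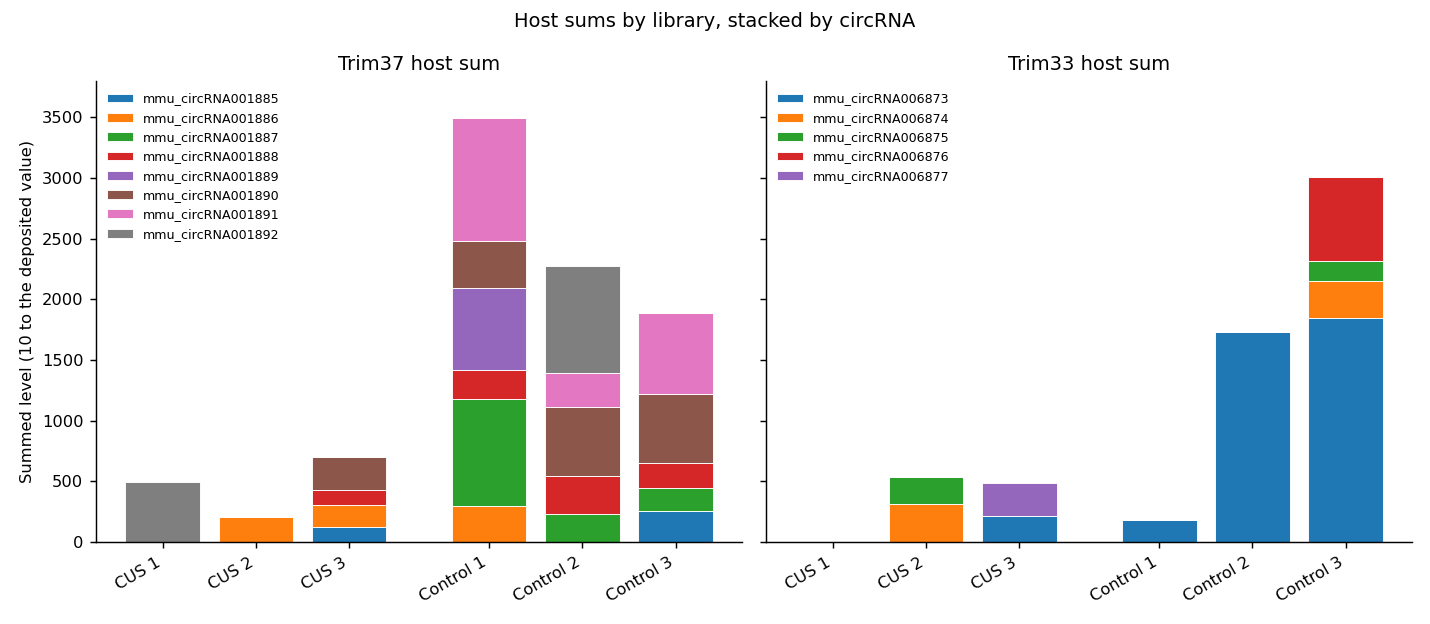
Summed level of Trim37 (left) and Trim33 (right) in each library, with the stacked colours showing the circRNAs that make up each sum. Trim37 sums are 204 to 699 in CUS and 1883 to 3493 in Control from changing sets of circRNAs, while Trim33 sums in Control replicates 1 and 2 are mmu_circRNA006873 alone.

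The 2 hosts also differed in which libraries were high. Trim37 was highest in Control replicate 1, where Trim33 was lowest among Control libraries, and Trim33 was highest in Control replicate 3, where Trim37 was lowest among Control libraries. Over the 6 libraries, Pearson's r between the 2 sums on the log2 scale was 0.33, a description over points that share libraries.

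The other members of the family were then examined. They are the hosts left after Trim37 and Trim33 were picked from this same comparison. A lack of separation among them is therefore partly set by that choice, and nothing about the family is read from it. Of 69 further mouse genes in the TRIM family list (every protein-coding gene named Trim with a number, and Mid1, Mid2 and Pml), 6 had a circRNA and 3 were above 0 in at least 3 libraries. Trim24, which like Trim33 belongs to the TIF1 group of chromatin-reading TRIM proteins, was at 6002, 1019 and 1876 in CUS libraries, against 2317, 2471 and 2894 in Control. CUS replicate 1 was the highest and CUS replicate 2 the lowest of the 6 libraries. Trim2, a ligase known for limiting neurofilament light chain in mouse axons, was at 1498, 1947 and 3107 in CUS libraries, against 492, 2032 and 2218 in Control. Mid2, a microtubule-binding ligase, was at 0, 151 and 179 in CUS libraries, against 159, 1450 and 617 in Control.

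All 3 overlapped between groups, with log2 differences of -0.17 (SE 0.49) for Trim24, 0.65 (SE 0.55) for Trim2 and -2.22 (SE 1.44) for Mid2. In limma with Benjamini-Hochberg adjustment over 2227 hosts, 0 of the 3 passed, with a lowest adjusted p of 0.918 and 0 at an unadjusted p under 0.05. Over all hosts 0 (0%) passed as well, with a lowest adjusted p of 0.737, and 127 had an unadjusted p under 0.05. Trim46, Trim8 and Mid1 had 1 circRNA each and were above 0 in at most 2 libraries. The other genes of the TIF1 group, Trim28 and Trim66, had no circRNA in the table.

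**Figure D4:**
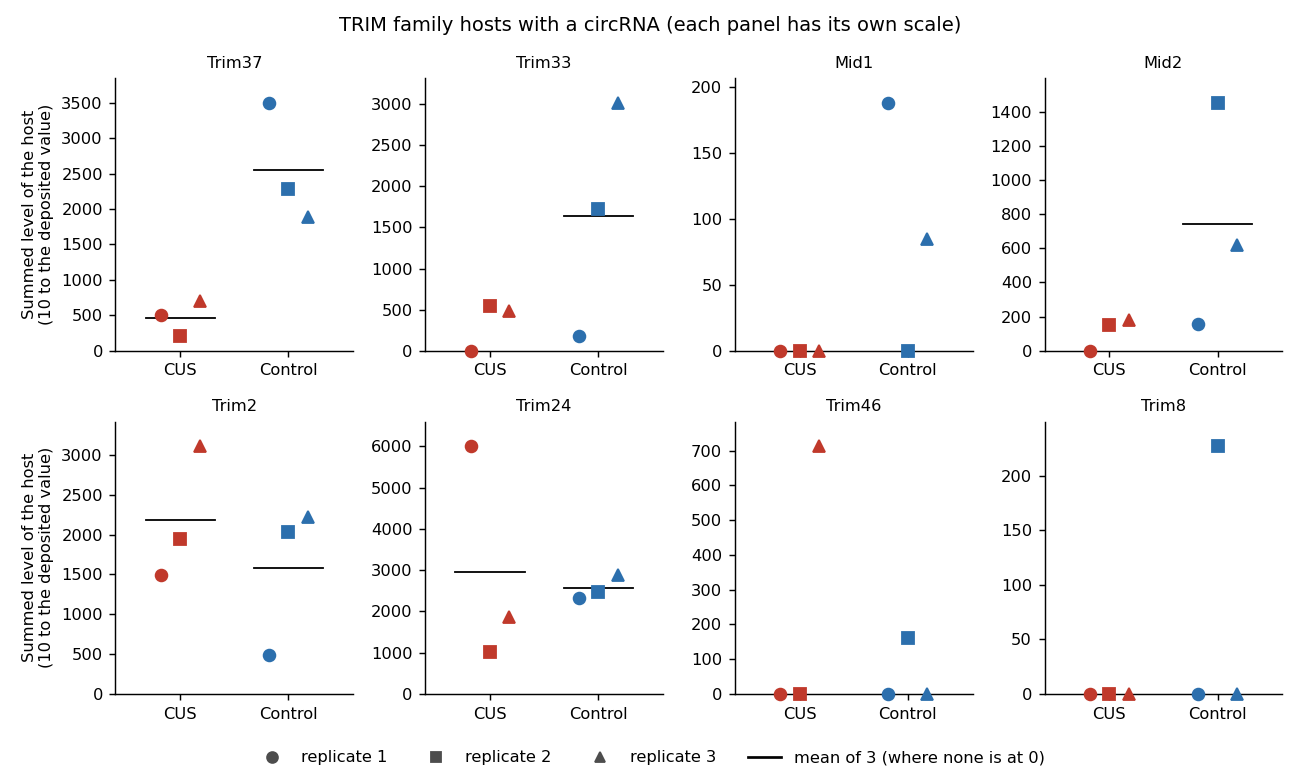
Summed circRNA level of each TRIM family host (10 to the deposited value, linear axes, a scale of its own in each panel) in 3 CUS and 3 Control libraries, 1 point per library, with a line at the mean where no library of the group is at 0. Only Trim37 has both groups above 0 throughout with no overlap, and Trim24 reaches 6002 in CUS replicate 1.

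Hosts around the known work of the 2 proteins were counted next. Of 19 TGF-beta and BMP hosts in the fit, where TRIM33 acts, 8 were higher and 11 lower in CUS, and 0 passed or had an unadjusted p under 0.05 (limma lowest adjusted p = 0.918), with a median log2 difference of -0.03 against -0.06 over all hosts. Those of smallest p were Bmpr2, a BMP receptor gene (846, 541 and 924 in CUS libraries, against 0, 126 and 835 in Control), and Nedd4l, a ligase gene that acts on SMADs (0, 188 and 913 in CUS libraries, against 181, 1230 and 1325 in Control). Both overlapped between groups. Of 11 centriole and centrosome hosts, 5 were higher and 6 lower, and 0 passed in limma or had an unadjusted p under 0.05, with a median log2 difference of -0.21. Pcnt, the pericentrin gene, was at 0, 0 and 122 in CUS libraries, against 0, 343 and 755 in Control. Pcm1, a centriolar satellite gene, was at 761, 1132 and 261 in CUS libraries, against 2573, 209 and 3005 in Control. Of 17 peroxisome genes 3 had a circRNA, and none was above 0 in at least 3 libraries.

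Of 5 Polycomb hosts, the complexes that modify histones H2A and H3, 3 were higher and 2 lower, and 0 passed in limma with 1 at an unadjusted p under 0.05. Their median log2 difference was 0.49. Ezh2, the H3 methyltransferase, was at 2067, 1232 and 764 in CUS libraries, against 579, 207 and 207 in Control (log2 difference 1.93, SE 0.85, limma adjusted p = 0.737). Rnf2, the H2A ubiquitin ligase, was at 513, 221 and 283 in CUS libraries, against 1301, 1064 and 745 in Control (log2 difference -1.53, SE 0.88, limma adjusted p = 0.918). In both the groups did not overlap, with 1 host above and 1 below Control in CUS, beside 5.66% of all hosts wholly above and 5.75% wholly below.

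Of 36 other ubiquitin ligase hosts, some of them also in the TGF-beta list, 13 were higher and 23 lower in CUS. Their median log2 difference was -0.43. Over all 2227 hosts in the fit 1065 were higher and 1162 lower, with a median of -0.06. Whether the ligase list differs from all hosts was not tested. In limma 0 passed and 1, Rnf19a, had an unadjusted p under 0.05. Rnf19a was listed at 0 in all CUS libraries, against 74.9, 320 and 644 in Control. It entered the fit only through the Control group, where it is high, so its p is not read. It is also among the 23 lower hosts. Ubr2, a ligase gene of the N-degron pathway, was at 0, 218 and 0 in CUS libraries, against 500, 219 and 1532 in Control. Hecw1, a HECT ligase gene, was at 2300, 1022 and 1813 in CUS libraries, against 186, 1677 and 774 in Control. The list had 4 hosts, Rnf19a among them, wholly below and 1 wholly above Control in CUS, beside 5.75% and 5.66% of all hosts.

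The hosts most like the Trim37 sum over the 6 libraries were sought among 1033 hosts above 0 in at least 5 libraries and with a mean above the median. They were Dcun1d4, a cullin neddylation gene (r = 0.99), Ankhd1 (0.95), Nalcn, a sodium leak channel gene (0.93), Rnf2 (0.93) and Sptan1, a spectrin gene (0.92). Dcun1d4 was at 2067, 1721 and 2302 in CUS libraries, against 3228, 2804 and 2987 in Control, so it ranked the libraries almost as Trim37 did over a much narrower range. For Trim33 they were Zfp516 (0.97), Fbxo11, an F-box ligase subunit gene (0.97), Shld2 (0.96), Chsy3 (0.95) and Peak1os (0.94). With 6 points and this many candidates, such values are descriptions only.

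Protein-coding neighbours of Trim37 within 500000 bases were also measured. Of these, 6 of 17 had a circRNA and 3 (Vmp1, Ppm1e and Mtmr4) entered the fit, with a lowest limma adjusted p of 0.969. Ppm1e, the next protein-coding gene downstream, was at 0, 847 and 631 in CUS libraries, against 104, 910 and 269 in Control. All 3 overlapped between groups, and 0 had an unadjusted p under 0.05.

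Marker hosts were summed as a check of the tissue label and of cell makeup. Neuron markers, with a circRNA for 7 of 10, summed to 14319 to 17969 in CUS and 9874 to 16582 in Control. Granule cell markers (6 of 10, Prox1 included) summed to 7836 to 10610 in CUS and 5445 to 10791 in Control. Of the pyramidal cell markers, Neurod6, Mpped1, Fibcd1, Wfs1, Spink8 and Bok had no circRNA in the table. The other 4 of 10 summed to 2993 to 4007 in CUS and 4416 to 8038 in Control, mostly from Tenm3. These ranges, like those of Trim37, did not overlap. By log2 difference 3 of the 4 hosts were higher in CUS (median 0.47). Of these, Cpne4 entered the fit only through the CUS group, where it is high. Nr3c2 had a log2 difference of 0.12 (SE 1.05) and a lower mean in CUS (584 against 702 in Control). The count and the median are therefore not read. Cpne4 lay the other way from the sum, at 144, 272 and 381 in CUS libraries and listed at 0 in all Control libraries. Over all hosts, 5.75% lay wholly below and 5.66% wholly above Control in CUS. Interneuron markers (2 of 10, with no circRNA for Gad1 and Gad2) summed to 1702 to 4750 in CUS and 854 to 2862 in Control. Astrocyte markers (5 of 10, with no circRNA for Aqp4 and Gfap) summed to 1710 to 2954 in CUS and 1375 to 2075 in Control. Oligodendrocyte markers (7 of 12, with no circRNA for Mog and Mag) summed to 2039 to 3726 in CUS and 1567 to 2107 in Control. Single hosts in these lists went both ways. In the fit, Gpc5 (astrocyte list) lay wholly below Control in CUS, beside 5.75% of all hosts. Rfx3 (granule cell list) and Slc44a1 (oligodendrocyte list) lay wholly above, beside 5.66%. Vascular and choroid markers (2 of 10, with no circRNA for Ttr) reached at most 454, and none of the 8 microglial markers had a circRNA. The part of cell makeup in the Trim37 and Trim33 levels was not tested.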

How the data were processed

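The members and gene lists were chosen with earlier results of these data known. The authors deposited 1 table of log10 values for 10652 circRNAs in 6 libraries, with a circRNA that has no value listed at 0. Its header names no unit. Of levels up to 300 steps, 100% lay within 0.05 of a whole multiple of a library-specific step, with the lowest level taken as 17 steps. What a step stands for and the circRNA caller are not given in the sources used here. Per the labels, the submitters' processing notes name StringTie, DESeq, edgeR and mm9 but give them no role. Libraries were poly(A)-selected and carried molecular identifiers, per the labels' protocols.

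Hosts were named from GENCODE vM21, where 4467 of 4483 identifiers matched. Of 786 circRNAs with several hosts, 583 went to their only protein-coding host, which put all 5 Trim33 circRNAs in its sum. CircRNAs and hosts above 0 in at least 3 libraries were fitted with limma 3.58.1 (R 4.3.3, eBayes with a trend) on log2(level + 45.5), the median lowest level, adjusted by Benjamini-Hochberg at 0.05. Fold changes on that scale understate the change of low circRNAs. The script was tested on simulated data. As no label ties a library to an animal, p-values reflect the spread among these libraries only, which may be technical. Named hosts were the 2 to 4 of smallest p in each list, up to 6 for TRIM genes, and the 5 most like each sum. The neighbours of Trim37 were added after the data were seen, and Ppm1e was named after its values were seen. Sequence was matched by symbol to the RefSeq promoter table for Trim37 (1 of 2 genes). Tables and tests used pandas 2.3.3, numpy 2.4.6 and scipy 1.17.1 in Python 3.11.15, and figures matplotlib 3.10.9.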

Additional observations from a re-analysis of the deposited data

How the results depend on the processing

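The log2 difference of the Trim37 sum stayed below 0 in all settings run, from -2.77 to -1.98 without 1 library, from -2.54 to -2.03 with 0.2 and 5 times the pseudocount, -2.38 and -2.46 after quantile and median-of-ratios rescaling, and -2.00 without mmu_circRNA001891. Since the Trim37 sums of the groups do not overlap, leaving out a library or changing the pseudocount could not change this sign. Only the size of the Trim37 difference is described by those settings. The Trim33 sum was at -2.89 and -1.46 with 0.2 and 5 times the pseudocount and ranged from -3.27 to -0.94 without 1 library. Without its circRNA of highest mean, mmu_circRNA006873, the Trim33 difference was 0.58 with SE 1.54, the opposite sign (the cause was not tested). The remainder was at 0, 538 and 272 in CUS libraries, against 0, 0 and 1168 in Control. Its mean level was still lower in CUS, at 270 against 389 in Control. Trim33 is at 0 in 1 library, so no value exists among hosts above 0 in all 6 libraries. Counting circRNAs of close levels once was not run, because the closest pairs still differed by 91 steps for Trim37 and 57 steps for Trim33 in some library, and no limit for close levels had been set. Taking every circRNA that lists a host gave the same sums, since all members were already in them. For single circRNAs, settings added after seeing the data moved mmu_circRNA001888 to -3.56 and -0.87, mmu_circRNA001890 to -4.16 and -1.31, and mmu_circRNA001886 to 1.30 and 0.20 with 0.2 and 5 times the pseudocount. Without 1 library mmu_circRNA001886 ranged from 0.15 to 1.61. The same settings put mmu_circRNA006873 at -5.00 and -2.06 with 0.2 and 5 times the pseudocount. It ranged from -4.49 to -2.96 without 1 library.

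In every setting, limma called 0 circRNAs, 0 hosts and 0 listed hosts, TRIM hosts included, at an adjusted p under 0.05. At an unadjusted p under 0.05 there were from 32 of 804 to 262 of 3896 circRNAs, and 171 of 10652 without the filter. For hosts there were from 53 of 920 to 131 of 2227. Of 70 listed hosts, 0 did so without CUS replicate 1 and 5 without Control replicate 2, beside 112 of all 2227 hosts in both settings. No other TRIM host did in any setting. The difference in circRNAs above 0 was -320 and ranged from -399 to -232 without 1 library. Replicate numbers are shared by the groups, but same-numbered libraries did not deviate together (r of -0.008, -0.074 and 0.013 over 804 circRNAs). With the replicate block the Trim37 and Trim33 differences were -2.43 (SE 0.69) and -2.15 (SE 1.09), and 0 hosts passed. Read depth is unknown, so levels at 0 cannot be given a limit.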
